A study of Mus musculus with 6 samples.

Results

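The STAT transcription factor genes and the Janus kinase genes are described here in mouse blood progenitors sorted by a vector that expresses EVI1. The members were 6 STAT genes (Stat2, Stat3, Stat4, Stat5a, Stat5b and Stat6) and 3 Janus kinase genes (Jak1, Jak2 and Jak3), 9 of the 18192 genes measured. They were chosen by gene symbol. Each is represented by its brightest probe set among those annotated to that gene alone, and 19 such probe sets covered the 9 genes. A further 2 probe sets, annotated to Jak3 together with a neighbouring gene, were left out. Other genes of both families are not covered, except for 1 comparison with Tyk2.

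The cells were lineage-negative (Lin-) progenitors of C57BL/6J mice that carry the doxycycline-dependent transactivator rtTA in the Rosa26 locus, named Rosa26rtTA. EGFP-positive cells (3 arrays) carried the vector pRRL.TET.EVI1.IRES.EGFP, which gives EVI1 (the zinc finger protein of the Mecom locus) and EGFP on 1 transcript. EGFP-negative cells (3 arrays) are called untransduced in the labels, whereas the design text has them sorted, by absent or low EGFP, out of a transduced culture. All cells were grown with stem cell factor, interleukin-3, Flt3 ligand and interleukin-11 (S3F11 medium). The design text adds doxycycline at 1 µg/ml the day after transduction and sorts the cells 20 hours later. None of the 6 arrays held cells with a vector lacking EVI1, so transduction and EVI1 expression cannot be told apart. Each array measured a whole sorted fraction, in which fewer cells of a type and less RNA per cell cannot be told apart. The labels do not state whether the 3 replicates were cultured apart or taken from different mice. All p-values therefore rest on the spread among these arrays, which could be technical.

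Janus kinases sit on the inner tails of cytokine receptors. When a cytokine joins the receptor chains, the kinases phosphorylate each other, the receptor and then the STAT proteins, which pair up, enter the nucleus and bind DNA. Interleukin-3 signals through JAK2 and STAT5, interleukin-11 through the shared chain gp130 with JAK1 and STAT3, and type I interferon through a complex of STAT2, a partner STAT and IRF9. Proteins of the SOCS family, many of them made in response to STATs, switch the signal off. The arrays measured transcripts only, and STAT proteins act after phosphorylation, which was not measured.

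Values are log2 expression per probe set. The 6 arrays had medians of 5.11 to 5.14, and Pearson's r across probe sets was 0.989 between EGFP-positive arrays, 0.995 between EGFP-negative arrays and 0.968 to 0.969 between the groups. The 3' signal of Actb exceeded its 5' signal by 1.00 ± 0.03 in EGFP-positive arrays and by 0.80 ± 0.05 in EGFP-negative arrays (log2, SD, n = 3 each), and that of Gapdh by 1.06 ± 0.04 in EGFP-positive and 0.82 ± 0.02 in EGFP-negative arrays. Of 9 progenitor and blood cell markers, Ptprc (CD45) was bright in both groups, 6 were lower in EGFP-positive cells, Kit and Cd34 among them, and 1 was higher. Markers of more mature cells also differed (over all genes, 16.0% passed the test described below as higher and 17.2% as lower). Of 10 neutrophil markers 9 were lower and 1 higher in EGFP-positive cells, with summed linear signals of 27730 to 28350 in EGFP-positive and 53150 to 56470 in EGFP-negative arrays. Of 8 mast cell markers 6 were lower and 0 higher (9787 to 10520 in EGFP-positive, 20670 to 20710 in EGFP-negative arrays), and of 8 lymphoid markers 3 were lower and 0 higher (117 to 143 in EGFP-positive, 1078 to 1214 in EGFP-negative arrays), with Ebf1, Rag1, Pax5 and Cd3g near background in both groups. Of 7 monocyte markers 4 were lower and 3 higher (5445 to 5574 in EGFP-positive, 5910 to 5939 in EGFP-negative arrays). Of 7 erythroid markers 6 were higher and 1 lower (9057 to 9420 in EGFP-positive, 3813 to 3974 in EGFP-negative arrays), and of 7 megakaryocyte markers 4 were higher and 0 lower (3691 to 4137 in EGFP-positive, 1642 to 1778 in EGFP-negative arrays), with Gp6 near background. These shifts and the 3' excess move with the groups and so with every difference below, and their part in it was not tested.

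Transcripts of Stat2, Stat3, Stat5a and Jak2 were higher in EGFP-positive cells, and no member passed the test as lower by its brightest probe set. Stat2 stood out in size, 3.00-fold higher, while Stat3 (1.35-fold), Stat5a (1.36-fold) and Jak2 (1.29-fold) differed by much less. Stat4, Stat5b, Stat6, Jak1 and Jak3 did not pass. The 4 rises among 9 members stand beside a background of 33.2% of all genes that passed, 16.0% as higher and 17.2% as lower (limma, Benjamini-Hochberg adjusted p under 0.05 over all genes). In 5 of 9 members, the 4 above and Stat6, every EGFP-positive array lay above every EGFP-negative array, against 23.8% of all genes. The reverse held in 0 of 9 members and 24.4% of all genes. The median difference over the 9 members was 0.37 on the log2 scale, and 0.02 over all genes. All 9 lay above the highest signal of the bacterial control probe sets, 3.61, which serves here as the ceiling of background. Of all 18192 genes 13122 did so, and the shares above include the dimmer ones. With only genes above the median mean kept, all 9 members among them, 5405 genes and 5 members passed. That is a larger share of genes than 33.2%, so the shares over all genes are a low yardstick for these members. Most of the genes kept passed in that fit, in either direction, a share much like that of the members. The split of those genes into higher and lower was not counted.

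**Figure D1:**
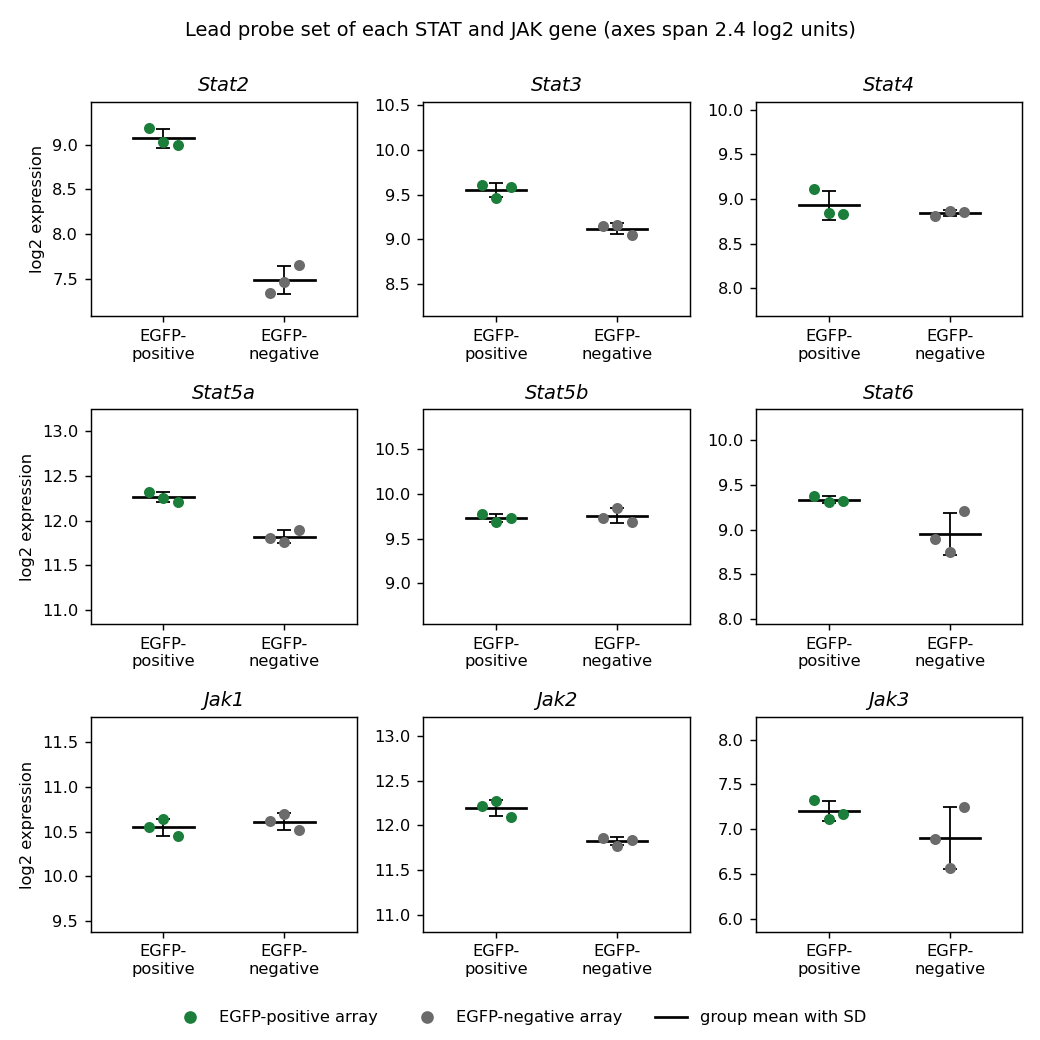
Log2 expression of the brightest probe set of each of the 9 genes, with 3 EGFP-positive arrays on the left and 3 EGFP-negative arrays on the right of each panel. Points are arrays, horizontal lines are group means and bars are SD (n = 3). Every panel spans the same height, so that Stat2 (mean 9.07 in EGFP-positive, 7.49 in EGFP-negative) shows the widest separation and Stat5b (9.73 in EGFP-positive, 9.76 in EGFP-negative) shows overlapping groups.

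Stat2 encodes the STAT of the type I interferon response, which binds IRF9 and rarely acts without it. Its brightest probe set, 1421911_at, read 9.19, 9.03 and 9.0 in EGFP-positive arrays, against 7.34, 7.46 and 7.65 in EGFP-negative arrays. The groups did not overlap, and the gap between them was wider than the range within either. The difference was 1.59 (SE 0.11, 95% interval 1.31 to 1.86; limma adjusted p = 0.00018). The second probe set of Stat2, 1450403_at, read 7.29, 7.07 and 7.32 in EGFP-positive arrays and 6.07, 5.81 and 6.09 in EGFP-negative arrays. It differed by 1.24 (SE 0.13; limma adjusted p = 0.00094 over probe sets). Both probe sets of this gene separated the groups without overlap.

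Stat2 is itself known as an interferon-induced gene, so its promoter is shown. In RefSeq's GRCm38.p6 table the 250 bases before its annotated start (chr10:128270248-128270497, plus strand) hold 1 match to the core of the interferon-stimulated response element (GAAA, any 2 bases, GAAA), searched on both strands. The match is printed in capitals, lies on the strand opposite to the motif as spelled, and spans positions -222 to -213 from the start. Among the other members 1 promoter window, at 1 of 2 annotated starts of Stat4, holds the motif (chr1:52008133-52008162, plus strand). For comparison, matches are given from 2 interferon-induced genes of the list described further on, Rsad2 (chr12:26456553-26456582, minus strand) and Ifit3 (chr19:34583397-34583426, plus strand). Ifit3 holds another match, at -156 to -147, that is not printed and differs from Stat2 in its letters. The printed Ifit3 match has the same 10 letters as that of Stat2.
Stat2: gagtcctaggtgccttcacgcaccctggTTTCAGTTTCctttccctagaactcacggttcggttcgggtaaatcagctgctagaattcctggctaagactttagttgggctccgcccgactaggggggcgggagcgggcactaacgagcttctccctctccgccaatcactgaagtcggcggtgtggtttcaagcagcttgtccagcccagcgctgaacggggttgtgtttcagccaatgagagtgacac
Stat4: aatgtcttcaGAAAGTGAAAtttagaacgg
Rsad2: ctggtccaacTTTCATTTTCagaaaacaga
Ifit3: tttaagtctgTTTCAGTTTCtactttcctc

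The motif occurred in 3.44% of all 32851 promoter windows (250 bases before to 50 after a start), in 2 of 12 windows of the members and in 7 of 14 windows of the interferon response list. The exact 10 letters found in Stat2 occurred in 0.231% of all windows, and among the interferon response genes in Bst2, Ifit1, Ifit3 and Oas1a. The palindromic site of STAT dimers, TTCNNNGAA, occurred in 8.30% of all windows and in 4 of 14 windows of the interferon response list. It occurred in 0 of 12 windows of the members, so no match of one motif overlapped the other there. These matches describe letters in a short window and show no binding. Stat4, whose window also holds the core motif, did not pass the test.

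Stat3 encodes the main STAT of gp130 receptors and of G-CSF signalling. Its brightest probe set, 1460700_at, read 9.61, 9.47 and 9.59 in EGFP-positive arrays and 9.15, 9.16 and 9.05 in EGFP-negative arrays. The groups did not overlap, and the difference was 0.43 (SE 0.08, 95% interval 0.23 to 0.64; limma adjusted p = 0.0095). Among its other probe sets, 1426587_a_at differed by 0.56 (SE 0.11; limma adjusted p = 0.011 over probe sets) and 1459961_a_at by 0.82 (SE 0.11; adjusted p = 0.0029). The last of these read 8.77, 8.67 and 8.97 in EGFP-positive arrays and 8.03, 7.97 and 7.95 in EGFP-negative arrays. The dimmest Stat3 probe set, 1424272_at, averaged 3.70 ± 0.16 in EGFP-positive and 3.68 ± 0.21 in EGFP-negative arrays (SD, n = 3 each), next to the background ceiling (difference 0.03, adjusted p = 0.93). Stat3 passed at 3 of 4 probe sets, with sizes from 1.35-fold to 1.77-fold. With adjustment over probe sets, the call of 1460700_at was lost without EGFP-positive replicate 1 (adjusted p = 0.052) and without EGFP-negative replicate 1, 2 or 3 (0.063, 0.058 and 0.067), whereas 1426587_a_at and 1459961_a_at passed in every leave-one-out fit.

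The STAT5 genes, which serve interleukin-3, erythropoietin, thrombopoietin and GM-CSF receptors in blood cells, are close copies of each other, and whether their probes bind both transcripts was not tested. Stat5a passed and Stat5b did not. Stat5a by 1421469_a_at read 12.32, 12.25 and 12.21 in EGFP-positive arrays, against 11.81, 11.76 and 11.90 in EGFP-negative arrays. Its groups did not overlap, and the difference was 0.44 (SE 0.08, 95% interval 0.24 to 0.64; limma adjusted p = 0.0081). Stat5b by 1422103_a_at read 9.77, 9.69 and 9.73 in EGFP-positive arrays and 9.73, 9.85 and 9.69 in EGFP-negative arrays. These groups overlapped, and the interval of the difference ran from -0.22 to 0.18 around -0.02 (limma adjusted p = 0.86). The Stat5a minus Stat5b value within an array was 2.53 ± 0.05 in EGFP-positive and 2.07 ± 0.15 in EGFP-negative arrays (SD, n = 3 each), higher in 3 of 3 EGFP-positive arrays than in any EGFP-negative array. That is a difference of 0.46 (SE 0.09) with a two-sided exact permutation p of 0.1, the smallest that 3 against 3 arrays allow.

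The dimmer probe sets of both STAT5 genes were less informative. For Stat5a, 1450259_a_at read 4.52, 6.26 and 5.57 in EGFP-positive arrays and 4.33, 4.76 and 4.71 in EGFP-negative arrays. Its groups overlapped through EGFP-positive replicate 1, and the difference of 0.85 (SE 0.42) did not pass (limma adjusted p = 0.21 over probe sets), although without EGFP-positive replicate 1 it was 1.31 (adjusted p = 0.019). With the mean of both probe sets the Stat5a difference was 0.64 (adjusted p = 0.054), and with the more variable one 0.85 (adjusted p = 0.18), so the call of Stat5a rests on its bright probe set. With adjustment over probe sets, the call of 1421469_a_at was lost without EGFP-negative replicate 1 or 2 (limma adjusted p = 0.065 and 0.071). It was also lost with the replicate block (0.064). For Stat5b, 1422102_a_at differed by 0.05 (SE 0.13; adjusted p = 0.82 over probe sets). Stat5b, Stat5a and Stat3 follow each other directly among protein-coding genes on chromosome 11 in GRCm38.p6, and of these 3 neighbours Stat5b alone did not pass.

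Stat6, the STAT of interleukin-4 and interleukin-13, lay close to the threshold. Its brightest probe set, 1426353_at, read 9.38, 9.31 and 9.32 in EGFP-positive arrays and 8.89, 8.75 and 9.21 in EGFP-negative arrays. The groups did not overlap, but EGFP-negative replicate 3 lay near the EGFP-positive values, and the difference of 0.39 (SE 0.13, 95% interval 0.07 to 0.70) did not pass (limma adjusted p = 0.067). Without EGFP-negative replicate 3 it was 0.51 (adjusted p = 0.018). The second probe set, 1421708_a_at, read 7.72, 7.61 and 7.61 in EGFP-positive arrays and 7.30, 7.22 and 7.25 in EGFP-negative arrays, a difference of the same size (0.39, SE 0.09) that passed (limma adjusted p = 0.024 over probe sets). That call was lost without EGFP-positive replicate 1 (adjusted p = 0.062) and without EGFP-negative replicate 1, 2 or 3 (0.068, 0.092 and 0.071). With the mean of both probe sets Stat6 passed (adjusted p = 0.021).

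Stat4 carries signals of interleukin-12 in lymphoid cells and had 1 probe set, 1448713_at. It read 9.12, 8.84 and 8.83 in EGFP-positive arrays and 8.81, 8.87 and 8.85 in EGFP-negative arrays. The groups overlapped, with EGFP-positive replicate 1 above the other 5 arrays. The difference was 0.09 (SE 0.10, 95% interval -0.17 to 0.34; limma adjusted p = 0.59).

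**Figure D2:**
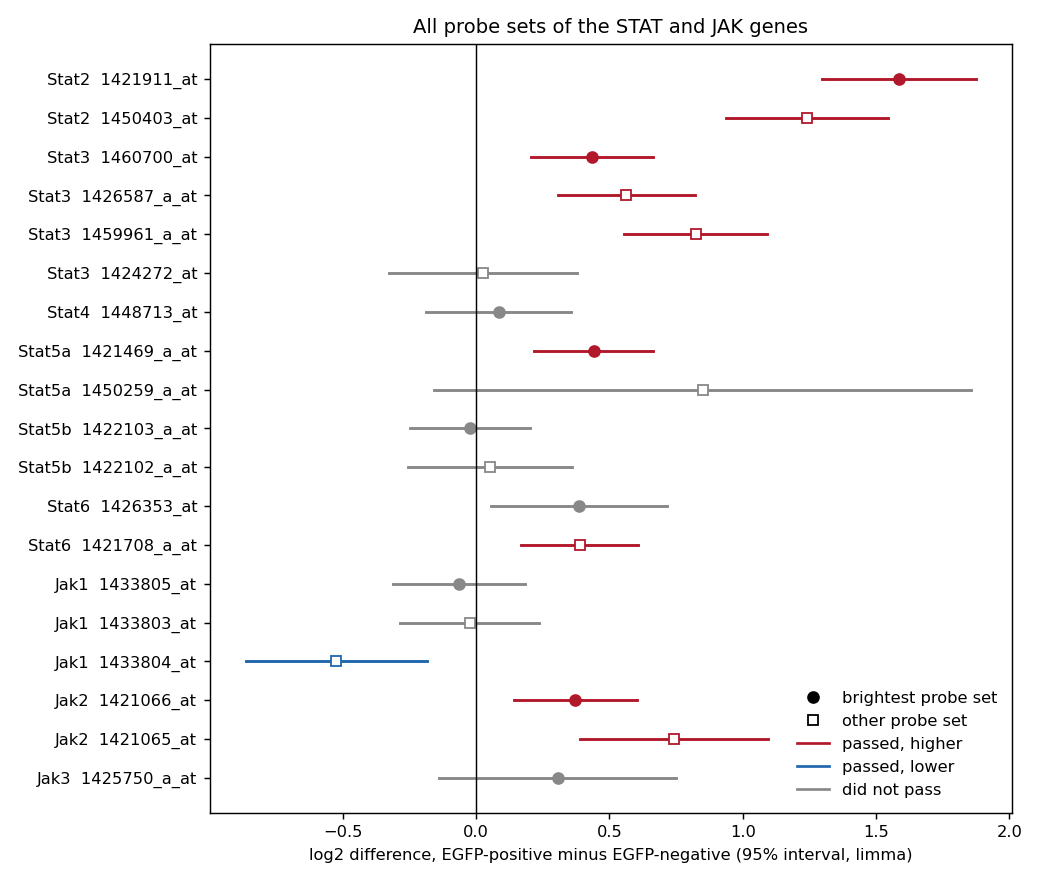
Log2 difference, EGFP-positive minus EGFP-negative, for all 19 probe sets of the 9 genes, with 95% intervals from limma over all probe sets. Filled circles are the brightest probe set of a gene and open squares the others, and colour shows the call. Of the 19, 9 passed as higher, 1 (of Jak1) passed as lower, and Stat2 lies farthest to the right.

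Of the 3 Janus kinase genes 1 passed by its brightest probe set. Jak2, the kinase of the receptors for interleukin-3, erythropoietin and thrombopoietin, read 12.22, 12.27 and 12.10 in EGFP-positive arrays, against 11.87, 11.77 and 11.83 in EGFP-negative arrays, at its brightest probe set 1421066_at. The groups did not overlap, and the difference was 0.37 (SE 0.08, 95% interval 0.17 to 0.58; limma adjusted p = 0.018). Its second probe set, 1421065_at, read 8.95, 8.43 and 8.64 in EGFP-positive arrays and 7.95, 7.92 and 7.93 in EGFP-negative arrays, a difference of 0.74 (SE 0.15; limma adjusted p = 0.012 over probe sets). The call of Jak2 by its brightest probe set was lost without any 1 of the EGFP-negative arrays, with adjusted p = 0.051 without replicate 1, 0.071 without replicate 2 and 0.053 without replicate 3. With adjustment over probe sets, 1421066_at also lost its call without EGFP-positive replicate 1 or 2 (limma adjusted p = 0.079 and 0.083). The replicate block removed it too (0.097), whereas 1421065_at passed in every refit (adjusted p up to 0.049).

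Jak1, which serves gp130 and both interferon receptor types, gave no single answer. Its brightest probe set, 1433805_at, read 10.55, 10.64 and 10.45 in EGFP-positive arrays and 10.62, 10.70 and 10.52 in EGFP-negative arrays. The groups overlapped, and the difference was -0.06 (SE 0.09, 95% interval -0.29 to 0.16; limma adjusted p = 0.66). A second, 1433803_at, differed by -0.02 (SE 0.11; adjusted p = 0.90 over probe sets). The dimmest, 1433804_at, read 5.10, 5.15 and 5.46 in EGFP-positive arrays and 5.92, 5.75 and 5.61 in EGFP-negative arrays, and fell by 0.52 (SE 0.14; limma adjusted p = 0.039 over probe sets). This fall did not pass when any 1 of 5 arrays was left out, all but EGFP-positive replicate 3 (adjusted p from 0.058 without EGFP-negative replicate 3 to 0.13 without EGFP-negative replicate 1).

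Jak3 pairs with JAK1 on receptors that use the common gamma chain, mainly in lymphoid cells. It read 7.33, 7.11 and 7.17 in EGFP-positive arrays and 6.89, 6.56 and 7.25 in EGFP-negative arrays at 1425750_a_at. The groups overlapped through EGFP-negative replicate 3, and the difference of 0.31 (SE 0.18, 95% interval -0.13 to 0.75) did not pass (limma adjusted p = 0.26). Tyk2, the remaining Janus kinase gene and a partner of JAK1 at the interferon receptor, is no member and was looked up after the members' values were seen. It averaged 8.15 ± 0.07 in EGFP-positive and 8.24 ± 0.14 in EGFP-negative arrays (SD, n = 3 each; difference -0.10, SE 0.10, limma adjusted p = 0.53).

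Over all 19 probe sets of the members, 9 passed as higher and 1 as lower, where 11.6% and 12.6% of all probe sets did so. Those shares include dim probe sets, since 29578 of 45037 averaged above the background ceiling, against 19 of 19 here. A share among probe sets of like brightness was not computed. The 9 were 2 of Stat2, 3 of Stat3, 1 of Stat5a, 1 of Stat6 and 2 of Jak2. The count of 10 fell to 5 without EGFP-negative replicate 1 and to 5 without EGFP-negative replicate 2. Both probe sets of Stat2 passed in every leave-one-out fit, with adjusted p over probe sets up to 0.0059 for 1450403_at.

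The 3 genes whose 6 values, centred on their own mean, lay closest to those of Stat2 were Tfr2, a transferrin receptor of erythroid cells and liver, Ankrd9 and Snhg11. Their Euclidean distances from Stat2 over the 6 arrays were 0.17, 0.19 and 0.20 log2 units. Each was higher in EGFP-positive cells by a similar amount, 1.51 for Tfr2, 1.58 for Ankrd9 and 1.54 for Snhg11. With 6 arrays in 2 groups this likeness is mostly the shared group difference.

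Irf9 and Nmi, the interferon-linked partners, were higher, while most other partners of STATs and Janus kinases did not pass. Of 10 genes for partners, coactivators and adaptors, 3 were higher and 1 lower, beside 16.0% and 17.2% of all genes. Irf9, which gives the STAT2 complex its DNA specificity, read 9.80, 10.39 and 9.58 in EGFP-positive arrays and 8.90, 8.67 and 8.74 in EGFP-negative arrays. The groups did not overlap, although EGFP-positive replicate 2 stood above its group, and the difference was 1.15 (SE 0.21; limma adjusted p = 0.0077). Nmi, an interferon-induced protein that binds STATs, was higher by 1.09 (SE 0.15; adjusted p = 0.0022), and the coactivator gene Ep300 by 0.46 (SE 0.08; adjusted p = 0.0058). Sh2b2, an adaptor that binds JAK2, fell to 5.35 ± 0.31 in EGFP-positive cells, against 7.44 ± 0.16 in EGFP-negative cells (SD, n = 3 each; difference -2.09, limma adjusted p = 0.00034, and -1.15 with the mean of its probe sets). Crebbp, Ncoa1, Stam, Stam2, Ndufa13 and Sh2b1 did not pass, with differences from -0.07 for Ndufa13 to 0.22 for Stam2.

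Receptors for the culture cytokines were mostly lower in EGFP-positive cells, while Jak2, which works with the beta chains, was higher. Of 6 measured, 4 fell and 1 rose, beside 17.2% and 16.0% of all genes. The beta chains that bind JAK2 for interleukin-3 signalling were Csf2rb, at 11.07, 11.14 and 11.03 in EGFP-positive against 12.59, 12.53 and 12.63 in EGFP-negative arrays, and Csf2rb2, the form specific to interleukin-3 in mice, at 9.86, 9.92 and 9.80 in EGFP-positive against 11.57, 11.57 and 11.62 in EGFP-negative arrays. Csf2rb was 2.83-fold lower (limma adjusted p = 6.9e-05) and Csf2rb2 3.31-fold lower (adjusted p = 4.1e-05). The beta chain genes are near-identical copies, so their probes may share signal. The alpha chain gene Il3ra rose by 0.51 (SE 0.09; adjusted p = 0.0076). The stem cell factor receptor gene Kit and Flt3, which are tyrosine kinases themselves, differed by -0.98 (SE 0.13) and -0.82 (SE 0.17). Il6st, which encodes gp130, did not pass (-0.13, SE 0.11). Il11ra1, the gene of the interleukin-11 receptor's own chain, had no probe set of its own and was not analysed.

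Of 27 other receptor genes that signal through Janus kinases, 7 rose and 7 fell, beside 16.0% and 17.2% of all genes. Their median difference was 0.21, or 0.13 once values below the ceiling are raised to it. The rises included Epor, the JAK2-coupled erythropoietin receptor (1.71, SE 0.19; limma adjusted p = 0.0011), Il27ra (1.14, SE 0.12) and Ifnar1 (0.51, SE 0.09). Ifnar2, the chain of the type I interferon receptor that holds JAK1, was also higher (0.36, SE 0.09; adjusted p = 0.022) and is named beyond the fixed rule because it completes that receptor. The falls were largest for Il7r, which averaged 5.81 ± 0.44 in EGFP-positive and 9.24 ± 0.06 in EGFP-negative cells, (SD, n = 3 each), and for Il2ra (difference -2.75, SE 0.22), both used by lymphoid cells with JAK1 and JAK3. Il10ra fell by 1.22 (SE 0.12), or by 0.52 with the mean of its probe sets. Leaving out EGFP-negative replicate 1 or replicate 2 reduced the 7 rises to 4 in each case.

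Genes that damp the pathway went both ways. Of 20 such genes 5 were higher and 7 lower, beside 16.0% and 17.2% of all genes, with a median difference of -0.09. Among the SOCS genes, Socs3, a target of STAT3 that blocks gp130 and JAK2, averaged 9.59 ± 0.05 in EGFP-positive and 10.64 ± 0.11 in EGFP-negative cells (SD, n = 3 each; difference -1.04, limma adjusted p = 0.00038). Its probe set is of the x_at type, whose probes can bind other transcripts. Socs5 was higher by 1.22 (SE 0.13; adjusted p = 0.00078). Cish and Socs2, feedback genes that STAT5 is known to induce, did not pass: Cish differed by -0.09 (SE 0.08; adjusted p = 0.45), and Socs2 differed by -0.13 (SE 0.07; adjusted p = 0.23, but 0.026 with an intensity trend in the variance). In both genes every EGFP-positive array lay below every EGFP-negative array, as in 24.4% of all genes. Socs1 fell by 0.35 (adjusted p = 0.019), a call lost without any 1 of the EGFP-negative arrays (adjusted p = 0.054, 0.075 and 0.061).

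Among the phosphatases, Ptpn6 (SHP-1), which removes phosphate from Janus kinases, rose by 0.58 (SE 0.07; limma adjusted p = 0.0018), and Ptpn11 (SHP-2) fell by 0.55 (SE 0.10; adjusted p = 0.0082). Usp18, an interferon-induced protein that blocks the type I interferon receptor, rose by 0.75 (SE 0.16; adjusted p = 0.015), with adjusted p = 0.057 without EGFP-negative replicate 1 and 0.053 without EGFP-negative replicate 2. The counts for these 20 genes fell when single arrays were left out, and so did the count over all genes. The latter was 6045 with all arrays and 4439 to 5679 with 1 left out. For the 20 genes there were 2 rises and 3 falls without EGFP-negative replicate 1, and 2 rises and 2 falls without EGFP-negative replicate 2. With all arrays kept, there were 3 rises and 3 falls with the replicate block, and likewise with the most variable probe set. Without EGFP-positive replicate 1 there were 3 rises, without EGFP-positive replicate 2 there were 3 rises and 4 falls, and without EGFP-negative replicate 3 there were 3 falls.

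**Figure D3:**
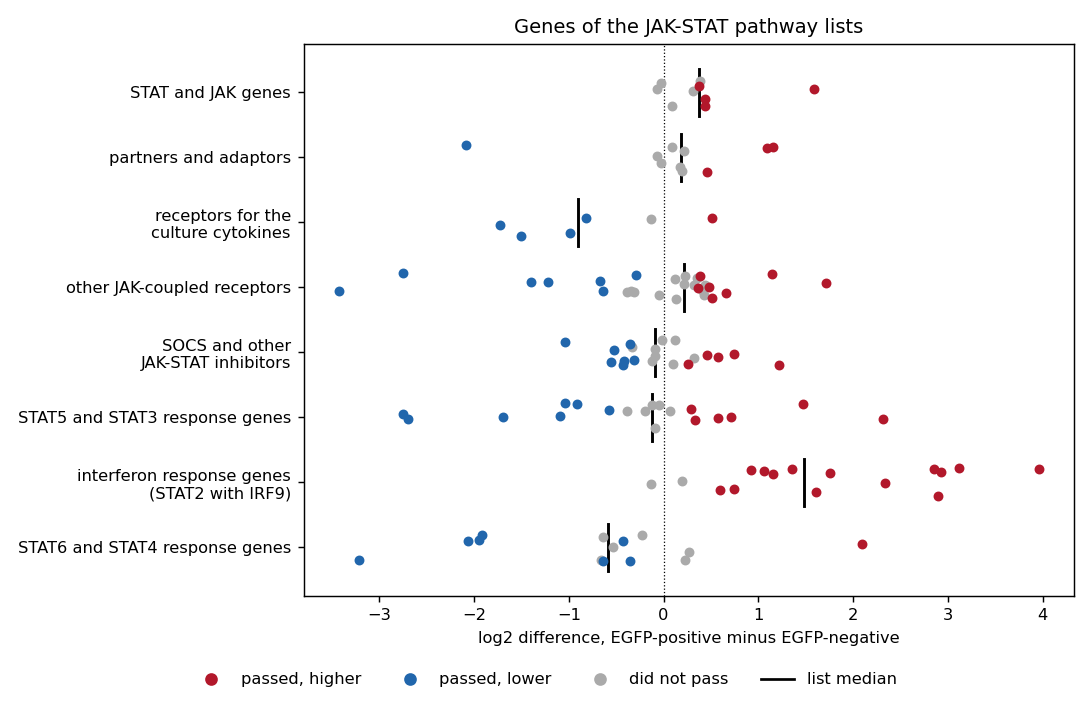
Log2 difference, EGFP-positive minus EGFP-negative, of the 9 members and of the genes in 7 pathway lists. Each point is 1 gene at its brightest probe set, coloured by call, and black bars are list medians. The interferon response list lies to the right, with a median of 1.48, while the lists of inhibitors and of STAT5 and STAT3 response genes spread to both sides of 0.

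Genes induced through STAT2 and IRF9 were mostly higher. Of 16 measured interferon response genes, 14 rose and 0 fell, with a median difference of 1.48, against 0.02 over all genes and backgrounds of 16.0% higher and 17.2% lower. Rsad2, an antiviral enzyme also called viperin, read 12.39, 12.33 and 12.29 in EGFP-positive arrays and 8.43, 8.26 and 8.41 in EGFP-negative arrays. It was 15.6-fold higher (3.97, SE 0.09; limma adjusted p = 1.5e-05). Oasl2 and Oas2, of the family of oligoadenylate synthetases that sense viral RNA, were higher by 2.89 (SE 0.08) and 2.92 (SE 0.15). The genes that did not pass were Eif2ak2 (0.20, SE 0.12) and Mx2, which lay under the background ceiling in both groups. Irf9 and Usp18 also belong to lists above. That interferon response genes are higher in these samples was known when this list was drawn up, so it is no independent evidence. Without EGFP-negative replicate 2 the count was 12 rises.

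**Figure D4:**
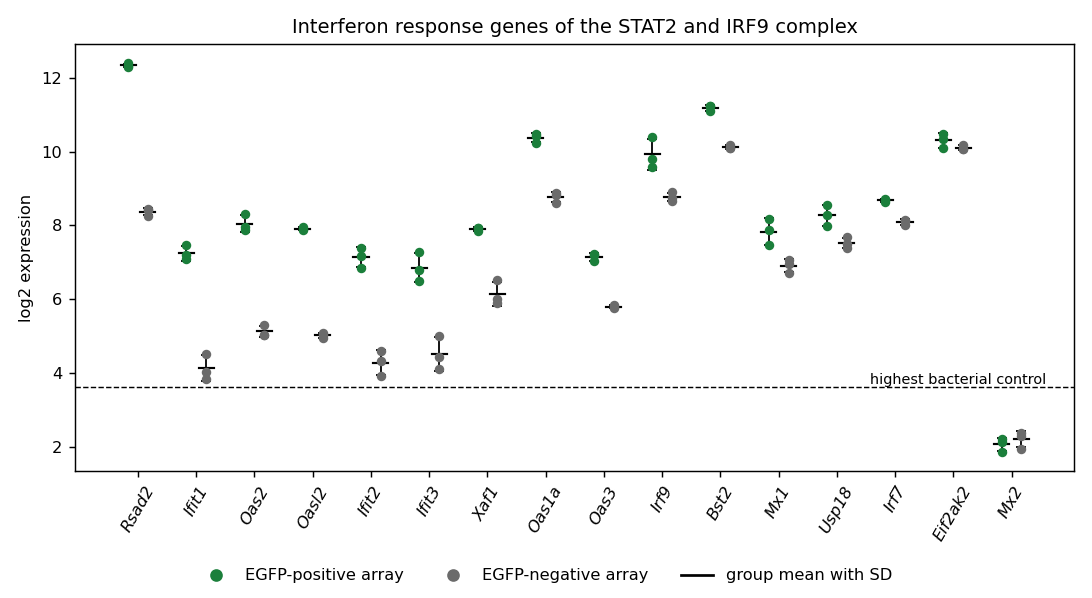
Log2 expression of 16 interferon response genes, ordered by their difference, with EGFP-positive arrays left of EGFP-negative arrays for each gene. Points are arrays, bars are mean and SD (n = 3), and the dashed line is the highest bacterial control signal, 3.61. Rsad2 shows the widest separation (mean 12.33 in EGFP-positive, 8.37 in EGFP-negative), and Mx2 lies under the line in both groups.

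Genes known to respond to STAT5 or STAT3 were divided. Of 19, 6 rose and 7 fell, beside 16.0% and 17.2% of all genes, with a median difference of -0.13. Bcl6, a transcriptional repressor that STAT3 is known to induce and STAT5 to repress, read 11.54, 11.71 and 11.62 in EGFP-positive arrays and 9.18, 9.29 and 9.45 in EGFP-negative arrays, 4.97-fold higher (2.31, SE 0.10; limma adjusted p = 4.0e-05). Bcl3, a regulator of NF-kB that STAT3 is known to induce, was higher by 1.48 (SE 0.09), and the survival gene Mcl1 by 0.58 (SE 0.08). Osm, a cytokine gene induced by STAT5, averaged 9.35 ± 0.05 in EGFP-positive and 11.04 ± 0.14 in EGFP-negative cells (SD, n = 3 each; difference -1.69). Myc fell by 2.70 (SE 0.17), and Il2ra, given above, is also in this list. The kinase gene Pim1, another STAT5 target, did not pass (0.07, SE 0.08) and is named beyond the rule.

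Genes known to respond to STAT6 or STAT4 fell more often than they rose. Of 14, 7 fell, 1 rose and 6 did not pass, where 17.2% of all genes passed as lower and 16.0% as higher. The median difference was -0.59, or -0.39 once values below the ceiling are raised to it. Alox15, Tbx21 and Ifng averaged under the ceiling in both groups. Arg1, the arginase of alternatively activated macrophages, read 8.55, 8.12 and 8.05 in EGFP-positive arrays and 11.47, 11.47 and 11.43 in EGFP-negative arrays, 9.30-fold lower (-3.22, SE 0.14; limma adjusted p = 4.1e-05). The chemokine gene Ccl22 fell by 1.91 (SE 0.09) and Ccl17 fell by 2.06 (SE 0.21). Gata3, a lymphoid transcription factor, rose by 2.09 (SE 0.21; adjusted p = 0.00067). Monocyte markers went both ways (4 lower and 3 higher of 7) and lymphoid markers were 3 lower and 0 higher of 8, and their part in these differences was not tested.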

How the data were processed

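Total RNA of 6 sorted samples was amplified from the 3' end and hybridised to 1 expression array each. The deposited log2 values per probe set were made by the authors with RMA, per the submitters' processing notes. The sources used here do not name its version. Scanner files were not used. The table held 45037 probe sets beside 64 controls. Genes came from GEO's platform annotation, and 18192 had a probe set annotated to them alone. Groups came from sample titles.

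Groups were compared by limma 3.58.1 under R 4.3.3 (lmFit, eBayes, no covariate), EGFP-positive minus EGFP-negative, two-sided, with Benjamini-Hochberg adjustment over all genes or all probe sets and a threshold of 0.05. The fit was also run on simulated data with far fewer changed genes than passed here, which gives no error rate for these calls. The 27 bacterial control probe sets set the background ceiling of 3.61. Arrays have no read depth, so 3 arrays per group limit the precision.

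The members and lists were chosen with earlier results of these data known. Named genes were all members, Cish and Socs2, up to 3 rises and 3 falls per list by smallest p, and the 3 genes nearest to the member with the largest rise. Genes named beyond that rule were chosen after their values were seen. Listed genes with no probe set of their own were not analysed here.

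Alternatives were a replicate block, 2 further scalings, only features above the median mean, array weights, the trend and robust options of eBayes, 2 other ways to pick the probe set, and leaving out each array. Promoters came from RefSeq (GRCm38.p6), and all 9 members matched by symbol.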

Additional observations from a re-analysis of the deposited data

How the results depend on the processing

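The 9 members kept their side of the threshold in 124 of 135 refits, and a called difference reversed in 0. The calls of Stat2, Stat3, Stat4, Stat5b and Jak3 changed in none of their 15. The sign of Stat4 and Stat5b, neither of which passed, was not stable (Stat4 -0.01 without EGFP-positive replicate 1, Stat5b from -0.06 to 0.05). Stat6 passed with only the brighter genes (adjusted p = 0.031), with eBayes trend (0.026), averaged over its probe sets (0.021) and without EGFP-negative replicate 3 (0.018), and Jak1 passed as lower with its most variable probe set (-0.52, 0.039). The Stat5a minus Stat5b difference was 0.63 with the mean of all probe sets and 0.80 with the most variable one, which brings in the dim Stat5a probe set. Leaving out 1 array gave 4439 to 5679 genes past the threshold, 3 to 4 members and 5 to 10 member probe sets. Same-numbered arrays of the 2 groups did not deviate together (r from -0.01 to 0.01). This gave no sign of pairing by number but cannot exclude it, because a shared effect could be small against array noise. With the replicate block 4900 genes, 3 members and 5 member probe sets passed, and the adjusted p of Jak2 was 0.062. For 34 named pathway genes 499 of 507 refits kept the call, with exceptions for Socs1, Socs2 and Usp18. The causes were not tested. Signal over background limits 1424272_at of Stat3 most.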
